A study of Mus musculus with 2 samples.

Results

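The proteasome genes described here are the 50 of 21911 protein-coding genes in the GENCODE M21 annotation whose symbol begins with Psm, a letter from a to g and a digit. They encode the subunits of the proteasome, its caps and inhibitor, and factors that assemble it. Open chromatin was mapped by DNase-seq, in which the nuclease DNase I cuts accessible DNA, in MN1, an immortalized mouse cell line of strain B6NCrl. Both libraries came from cells given 10 nM methyltrienolone, a synthetic androgen, and they are 2 biological replicates of a single group. Untreated cells were not analysed here, so every value is a level in androgen-treated cells, and no tissue of origin is named in the labels. The line was checked through markers of several cell types. All 4 neuronal genes (Tubb3, Nefh, Snap25, Stmn2) had an open promoter, beside 59.5% of all protein-coding genes. Open promoters were also found in 1 of 4 blood and thymocyte genes, 1 of 3 thymic epithelium genes and 0 of 3 male germ cell genes. Promoter scores, defined below, did not separate these lists fully. Stmn2 scored 88 in replicate 1 and 66 in replicate 2, below the blood gene Cd74 (94 and 96) and the thymic gene Prss16 (121 and 90). Tubb3 (149 and 144), Nefh (144 and 140) and Snap25 (135 and 136) scored above both.

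The proteasome is the barrel-shaped protease that degrades proteins tagged with ubiquitin. Its core is built of alpha subunits (Psma genes), which gate the barrel, and beta subunits (Psmb genes), some of which cut peptide bonds, while a cap of ATPases (Psmc genes) and further subunits (Psmd genes) captures and unfolds substrates. Under interferon-gamma, cells replace the cutting beta subunits with immune forms and add an alternative cap, which changes the peptides offered on MHC class I; other variant subunits serve male germ cells and the thymic cortex. When the proteasome is inhibited, the transcription factor NFE2L1 raises transcription of its subunit genes through antioxidant-type elements in their promoters.

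The sequences below come from promoter peaks of replicate 1, in the reference assembly of mm10, written from 5′ to 3′ on the strand of the gene. At most 30 bases of an annotated untranslated region are shown from any peak, so several peaks are represented by the stretch around a motif. The first set holds constitutive genes: the core subunits Psmb5 and Psmb6 with an antioxidant-type element in capitals, the lid subunit Psmd8, which had the highest score of the constitutive genes, with an SP/KLF box in capitals, and Psma6, Psmd13, Psmd14 and Psmd11 with the ETS motif in capitals. Motifs were sought on both strands, so the capitals can spell the reverse complement.
Psmb5 (chr14:54617993-54618125, minus strand): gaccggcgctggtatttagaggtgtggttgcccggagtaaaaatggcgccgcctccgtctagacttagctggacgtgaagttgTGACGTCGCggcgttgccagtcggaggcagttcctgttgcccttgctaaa
Psmb6 (chr11:70525236-70525385, plus strand): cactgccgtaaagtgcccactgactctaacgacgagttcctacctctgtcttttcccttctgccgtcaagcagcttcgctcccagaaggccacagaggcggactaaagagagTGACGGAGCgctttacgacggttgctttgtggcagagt
Psmd8 (chr7:29180576-29180675, minus strand): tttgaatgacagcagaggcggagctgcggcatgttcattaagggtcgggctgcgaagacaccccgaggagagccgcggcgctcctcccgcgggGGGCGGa
Psma6 (chr12:55398821-55398850, plus strand): ctCCGGAAGcagtagccataaCTTCCGGga
Psmd13 (chr7:140882376-140882405, plus strand): gcgcccgcggtgCCGGAAGtgagcgagcac
Psmd14 (chr2:61711729-61711758, plus strand): gaagccgggaacCCGGAAGtacttctctgc
Psmd11 (chr11:80428476-80428625, plus strand): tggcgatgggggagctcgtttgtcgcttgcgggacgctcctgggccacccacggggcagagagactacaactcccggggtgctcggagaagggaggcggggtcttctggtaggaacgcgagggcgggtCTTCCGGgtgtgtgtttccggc

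The second set holds the immune genes. For the highest peak of each gene the capitals mark the ETS, SP/KLF and antioxidant-type motifs in Psmb10, the CRE in Psmb8, and the SP/KLF box in Psmb9, Psme1 and Psme2. The last 3 lines come from other promoter peaks of the immune catalytic subunits, chosen after their values were seen, with the interferon-stimulated response element in capitals.
Psmb10 highest peak (chr8:105936996-105937145, minus strand): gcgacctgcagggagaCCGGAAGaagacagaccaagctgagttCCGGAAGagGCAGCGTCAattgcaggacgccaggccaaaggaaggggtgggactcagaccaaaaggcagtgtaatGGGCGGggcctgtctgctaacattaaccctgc
Psmb8 highest peak (chr17:34197616-34197750, plus strand): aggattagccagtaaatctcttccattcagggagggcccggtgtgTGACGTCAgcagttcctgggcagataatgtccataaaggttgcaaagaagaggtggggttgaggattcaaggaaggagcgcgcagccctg
Psmb9 highest peak (chr17:34187368-34187397, minus strand): tgcgcgatgatgGGGCGGggcctcagtctg
Psme1 highest peak (chr14:55578373-55578402, plus strand): gacccgagcgccGGGCGGaaacgctactcc
Psme2 highest peak (chr14:55591057-55591086, minus strand): atgaagccaacaCCGCCCttcctagtggca
Psmb8 second peak (chr17:34198335-34198364, plus strand): gtactgtggctTTCGCTTTCacttccttgt
Psmb9 second peak (chr17:34187688-34187717, minus strand): agaggaagaaGAAACCGAAagccgacctcg
Psmb10 second peak (chr8:105938163-105938192, minus strand): caaagacGAAAGTGAAAGAGAAgatgcaca

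A promoter was called open where a region with peaks in both replicates reached to within 1 kb of an annotated transcription start site (TSS) of the gene. By this measure 47 of the 50 proteasome genes had an open promoter, a share of 94.0%, beside 59.5% of all protein-coding genes. All 31 constitutive subunit genes and all 5 immune genes were open, and neither of the 2 testis or thymus genes was. The 3 genes without an open promoter were Psma8, Psmb11 and Psme2b, and none of them had a promoter peak in either replicate. Hotspots, the wider regions of enriched cutting that the authors also called, lay at the promoters of the same 47 genes in both replicates, beside 59.9% of all protein-coding genes. With 1 group of 2 libraries no test was made, and counts and medians stand beside those of all genes.

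The authors gave each peak of 150 bp a score between 1 and 150. Its definition is not stated in the labels or files, so it was read only as a rank within a library. A gene's promoter score is that of its highest promoter peak. Its percentile is the share of protein-coding genes with a promoter peak in that replicate that scored lower, with ties counted at 50%. The lower percentile of both replicates was taken as the gene's value. In bulk chromatin, a low score from opening in few cells cannot be told apart from weak opening in all. Scores of the 47 open genes ran between 112 and 150 in replicate 1 and between 101 and 146 in replicate 2. Replicate 1 scored higher in 44 of them, as it did in 86.5% of all genes with an open promoter, so levels were set side by side only as percentiles. Their median percentile was 53.2 (range 22.7 to 93.9), beside 46.7 over all protein-coding genes with an open promoter. The gap differed between replicates: the medians were 55.5 and 53.2 in replicate 1 alone, and 60.9 and 52.0 in replicate 2 alone. In 26 of 47 the percentile was 50 or more in both replicates, which also held for 45.7% of all genes with an open promoter. Nearly all proteasome promoters were thus open, while their scores were spread over much of the range, and 2 of 47 genes, Psmd8 and Psma6, were at 90 or more, beside 5.85% of all genes with an open promoter.

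**Figure D1:**
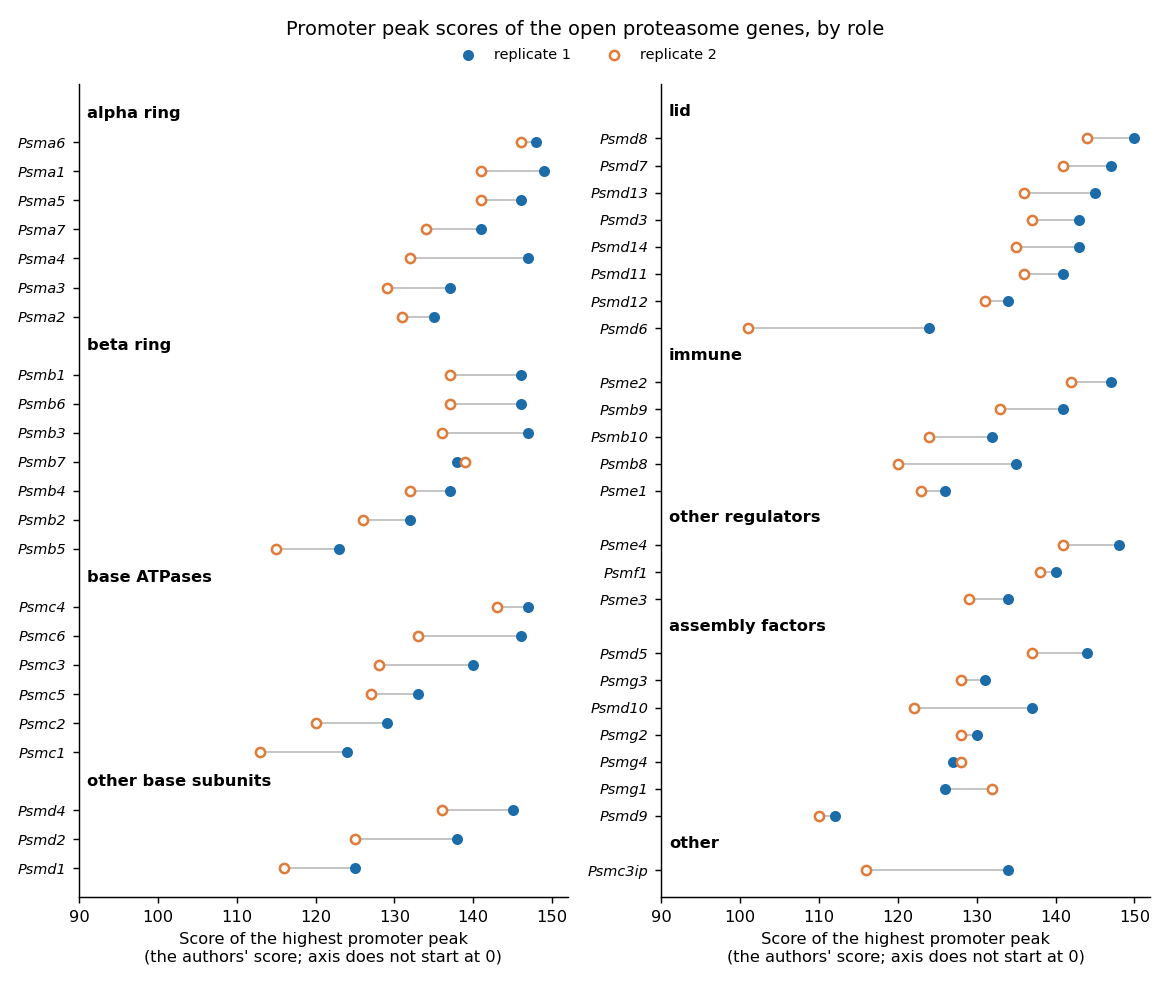
Score of the highest promoter peak (horizontal axis, the authors' score, not starting at 0) of each of the 47 open proteasome genes, by role and, within a role, by percentile. Filled points are replicate 1 and open points replicate 2; Psmd6, at 124 and 101, had the lowest value in replicate 2.

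The constitutive subunits had a median percentile of 63.5 (22.7 to 93.9), beside 43.2 (35.2 to 87.2) in the immune genes, and 21 of 31 constitutive against 2 of 5 immune genes were at 50 or more in both replicates. The ranges of both classes overlapped widely. Leaving out replicate 1 the medians were 66.0 and 44.4, and leaving out replicate 2 they were 63.8 and 48.8. Among the constitutive classes the lid genes had the highest median, 69.6 over 8 genes, and the 3 other base subunits the lowest, 46.1. This order differed in the single replicates. In replicate 1 the alpha ring was highest at 82.7, against 70.6 for the lid, and the base ATPases were lowest at 52.9. In replicate 2 the lid and the beta ring were both at 71.5, and the other base subunits were lowest at 46.1.

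In the alpha ring, which forms the gate of the core, all 7 genes lay at percentile 48.8 or above and their median was 63.8. Psma6 scored 148 in replicate 1 and 146 in replicate 2 (percentile 91.7). Psma1 scored 149 and 141 (86.4). At the low end, Psma3 had 137 and 129 (53.2) and Psma2 135 and 131 (48.8). The other alpha genes, Psma4, Psma5 and Psma7, lay between, and no other class of constitutive genes had so high a lowest member.

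The beta ring, which carries the proteolytic sites, had a median of 55.5. Psmb1, a structural subunit, and Psmb6, the caspase-like subunit, each scored 146 and 137 (percentile 74.6). Psmb2, a structural subunit, scored 132 and 126 (43.2). Psmb5, the chymotrypsin-like subunit and the target of the drug bortezomib, was the lowest of the ring at 123 and 115 (32.2). The genes of the 3 cutting subunits thus spanned the ring, since Psmb7, the trypsin-like subunit, scored 138 and 139 (55.5). Psmb3 and Psmb4 made up the rest, at percentiles 71.5 and 53.2.

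Of the 6 base ATPases, the ring that unfolds substrates, Psmc4 stood highest at 147 and 143 (percentile 87.2), followed by Psmc6 at 146 and 133 (63.5). Psmc2 had 129 and 120 (38.6), and Psmc1 was lowest at 124 and 113 (31.3). Psmc3 and Psmc5 lay in between, and the median of the ring was 48.4. The 3 other base subunits included the ubiquitin receptor Psmd4 at 145 and 136 (71.5), the scaffold Psmd2 at 138 and 125 (46.1) and the scaffold Psmd1 at 125 and 116 (34.1). The base therefore held members on both sides of the median of all open genes.

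The lid removes ubiquitin chains from substrates and had the widest spread of any class. Psmd8 had the highest percentile of all proteasome genes, 93.9, with scores of 150 and 144. Psmd7, the partner of the deubiquitinase Psmd14, scored 147 and 141 (86.4). Psmd12 had 134 and 131 (46.7). Psmd6 was the lowest of all open proteasome genes, with 124 and 101 (22.7), and the drop between its replicates was larger than in any other lid gene in the plot of scores. Psmd3, Psmd11, Psmd13 and Psmd14 filled the range between 63.8 and 71.5.

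**Figure D2:**
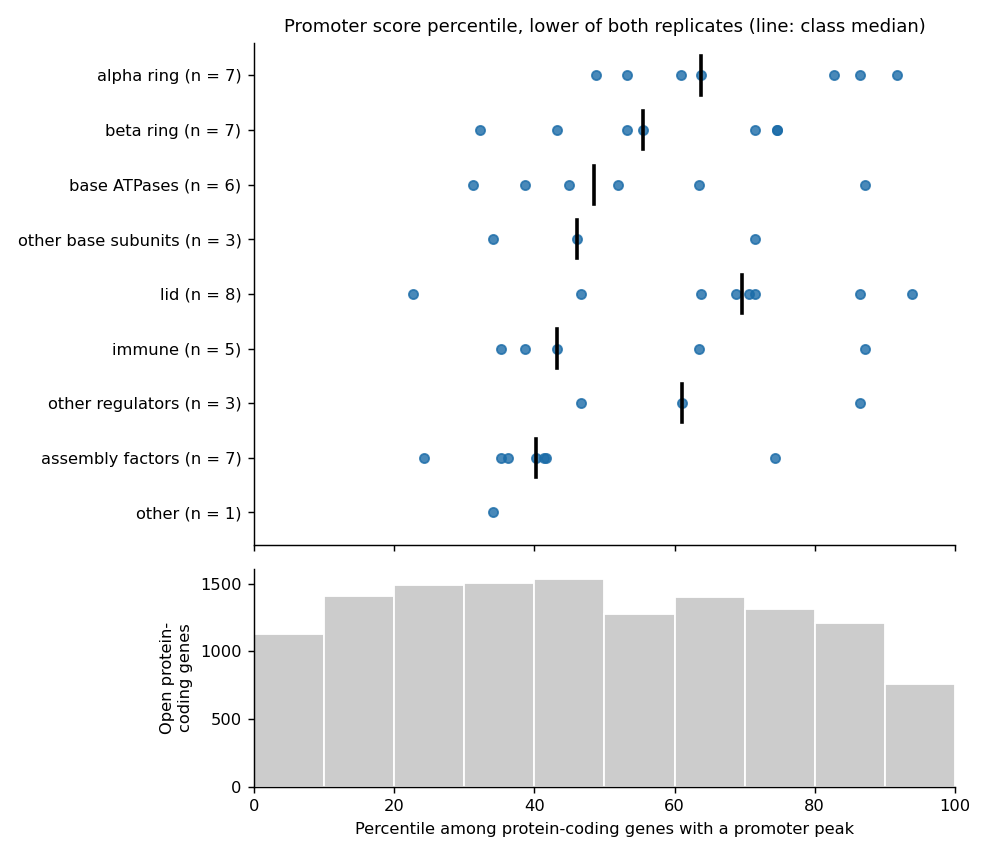
Promoter score percentile (horizontal axis, lower of both replicates) of each open proteasome gene by role in the upper panel, with the class median as a line, above the number of all open protein-coding genes per 10 percentile points (vertical axis). Among classes of 3 or more genes the medians run between 40.2 for assembly factors and 69.6 for the lid, and the single gene of the last row, Psmc3ip, is at 34.1.

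The immune genes were all open, and the labels give no interferon treatment. Psme2, which with Psme1 forms the interferon-induced cap, scored 147 in replicate 1 and 142 in replicate 2 (percentile 87.2), the same percentile as Psmc4. Psmb9, which takes the place of Psmb6, scored 141 and 133 (63.5). Psmb10, which takes the place of Psmb7, scored 132 and 124 (43.2). Psmb8, which takes the place of Psmb5, scored 135 and 120 (38.6), and its constitutive counterpart was lower, at the percentile of 32.2 given above. Psme1 scored 126 and 123 (35.2), so the 2 genes of the same cap stood at the top and at the bottom of the class.

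The positions of the immune peaks differed from gene to gene. At Psmb8 the highest peak was centred 30 bp upstream of a protein-coding TSS, and the second peak, with scores of 92 and 99, lay over the untranslated region. At Psmb10 the highest peak lay in an intron, beside the start of a retained-intron transcript, while the peak at the protein-coding start scored only 83 and 80. When only TSSs of protein-coding transcripts were counted, the median of the immune genes was 38.0. The highest peak of Psmb9 was likewise at the start of an alternative transcript, and the peak over its protein-coding start scored 136 and 116.

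Psmb9 and the peptide transporter gene Tap1 lie head to head, with start sites as near as 30 bp, and they share their highest peak, so its score is that of either gene. Psmb8 lies beyond the far end of Tap1 with a peak of its own. Psme2 has Rnf31, a subunit of the linear ubiquitin ligase, 595 bp away on the opposite strand. A peak at the Rnf31 side scored 147 and 139, next to the 147 and 142 of the peak over the start of Psme2, so both sides of the pair were high. Psme1, on the same chromosome, is separated from Psme2 by Emc9.

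**Figure D3:**
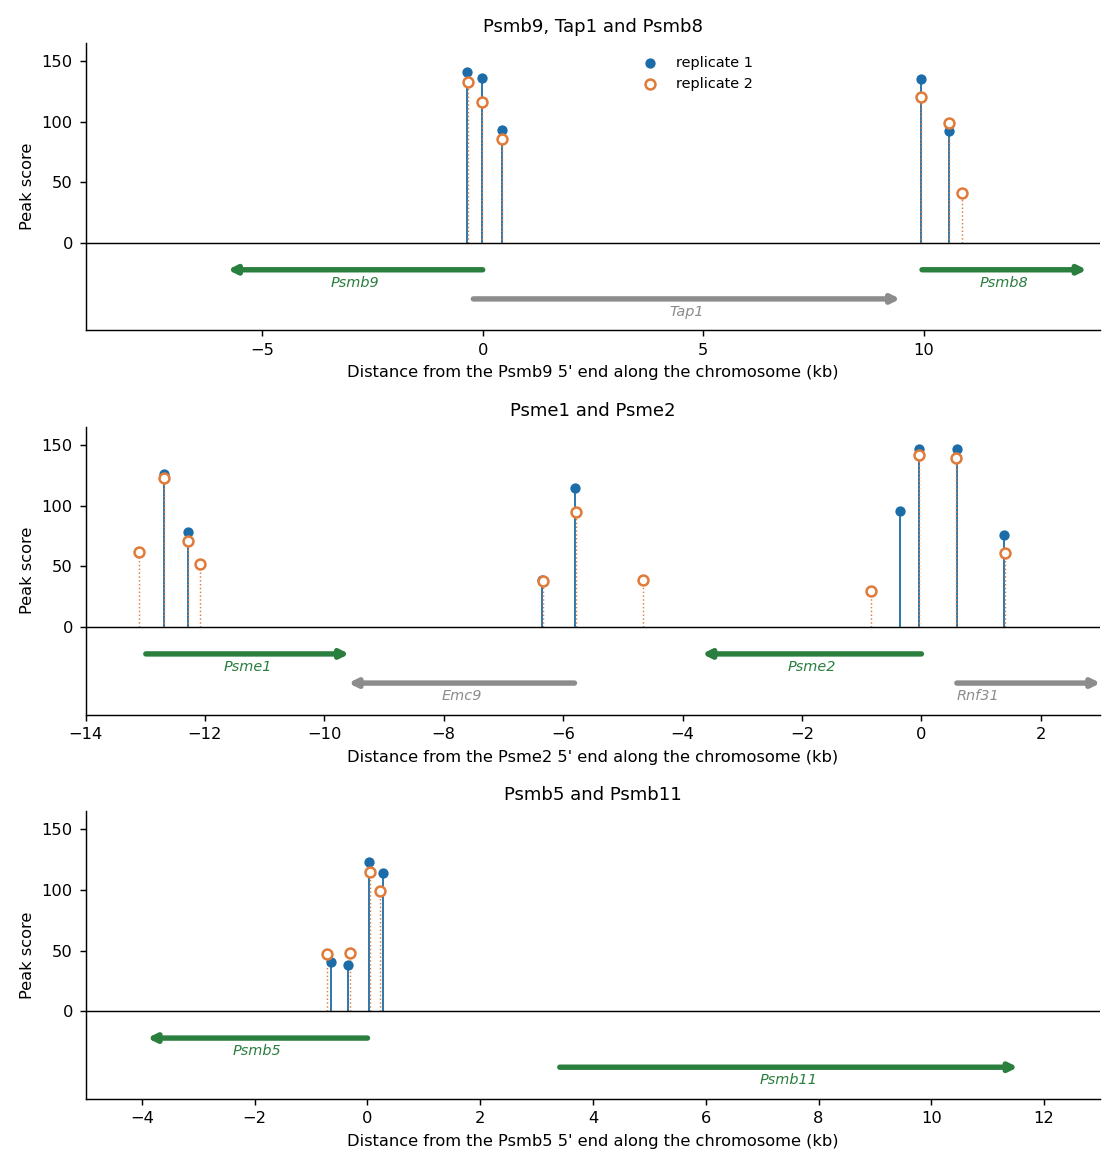
Peaks of replicate 1 (filled points, solid lines) and replicate 2 (open points, dotted lines) by score (vertical axis) around Psmb9, Psme2 and Psmb5, against the distance from the 5′ end of that gene in kb. Arrows show genes in the direction of transcription, green for proteasome genes; no point stands within 1 kb of the start of Psmb11, whose nearest shared region is 3162 bp away.

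Both tissue-restricted subunits lacked a promoter peak. Psma8, an alpha subunit of spermatogenic cells that stands in for Psma7, had its nearest region shared by both replicates 22890 bp from a start site. The nearest peaks there scored 101 and 97. Psmb11, the subunit of cortical thymic epithelium, had its nearest shared region 3162 bp from its start, on the side of the neighbouring Psmb5 promoter, where the peaks scored 114 and 99. Psmb5 and Psmb11 point away from each other, so a core subunit promoter with a peak and another without lie within a few kb. In the 250 bases before and 50 after the 5′ end, the ratio of observed to expected CpG was 0.764 at Psma8 and 0.0639 at Psmb11, beside medians of 0.726 for genes with an open promoter and 0.211 for those without. The missing peaks were thus found at a CpG-rich and at a CpG-poor start. Of the 32-base sequences around their starts, 98.3% at Psma8 and 91.7% at Psmb11 occur once in the genome. The male germ cell markers Ddx4, Dazl and Sycp3 also lacked an open promoter. The thymic epithelium markers were divided: Foxn1 and Aire lacked an open promoter, and Prss16 had one, with scores of 121 and 90. Why Psma8 and Psmb11 had no promoter peak was not tested.

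Psme2b, the third gene without a peak, has a transcript 99.3% identical to that of Psme2 over 716 aligned bases. Only 38.5% of the 32-base sequences around its start are unique, against a median of 96.0% (63.4% to 100%) at the open proteasome genes. Whether reads could be placed there was not tested. Its nearest shared region lay 71519 bp away.

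The 3 other regulators had a median percentile of 61.0. Psme4, a large cap protein of nuclear proteasomes, scored 148 and 141 (86.4), Psmf1, an inhibitor in vitro, 140 and 138 (61.0), and Psme3, the nuclear relative of Psme1 and Psme2, 134 and 129 (46.7). Assembly factors had a median of 40.2 over 7 genes, the lowest of the classes with 3 or more genes. Psmd5, a chaperone of the base, was the exception at 144 and 137 (74.4), and the chaperone Psmg3 followed at 131 and 128 (41.7). Psmg1 had 126 and 132 (35.2), and Psmd9, another base chaperone, was lowest at 112 and 110 (24.3). Psmd10, Psmg2 and Psmg4 lay between 36.3 and 41.4. By this lower percentile all assembly factors but Psmd5 stood below the median of all open genes, 46.7. The low standing did not hold in replicate 2 alone, where their median was 52.0, as was that of all open genes. There Psmg1 was at 60.9 and Psmg2, Psmg3 and Psmg4 at 52.0, while Psmd10 was at 41.4 and Psmd9 at 28.6. Psmc3ip, which the symbol rule takes in but which encodes a partner of the meiotic recombinases and no subunit, scored 134 and 116 (34.1).

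Peak positions were closely tied to the annotated starts. The centre of the highest peak lay within 150 bp of a start of its own gene in all 47 open genes in replicate 1 and in 46 in replicate 2, against 75.0% and 76.1% of all genes with an open promoter. The median centre was 27 bp upstream in replicate 1 and 33 bp upstream in replicate 2. Over all genes with an open promoter it was near this, 34 and 37 bp upstream. In 45 of 47 genes the highest peaks of both replicates overlapped. Psmd1 and Psmg2 were the exceptions: Psmg2 had peaks of 130 and 129 in replicate 1 at its own start and nearer to its neighbour Cep76, which scored 111 and 128 in replicate 2, so the higher of them changed. At Psmd1 the highest peak of replicate 1, with 125, had no partner in replicate 2.

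Of the 50 genes, 14 had a TSS of another protein-coding gene within 1 kb, which 14.5% of all protein-coding genes did. The neighbour was on the opposite strand in all but Psmg3, whose neighbour Gm26938 runs the same way. The closest pairs were Psmb9 with Tap1 at 30 bp, Psmc2 with Dnajc2 at 32 bp, Psma2 with Mrpl32 and Psmc5 with Ftsj3, each at 75 bp, Psma7 with Ss18l1 at 76 bp and Psmd13 with Sirt3 at 99 bp. Farther apart were Psma4 with AY074887 at 106 bp, Psmb1 with Tbp at 137 bp, Psmd1 with Htr2b at 145 bp, Psmd10 with Atg4a at 179 bp, Psmg2 with Cep76 at 263 bp, Psmd5 with Cutal at 450 bp and Psme2 with Rnf31 at 595 bp. In 12 of these 14 pairs the highest promoter peak of replicate 1 counted for both genes, so the score cannot be given to either alone. When each peak was counted only for the gene with the nearest TSS, 45 proteasome genes stayed open, with Psma2 and Psmd13 no longer among them. Over all 21911 protein-coding genes 12601 were then open, in place of 13037.

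Hotspots at the 47 open promoters had a median width of 1251 bp in replicate 1 and 1298 bp in replicate 2, against 1355 and 1279 bp over all genes with an open promoter. Psmb1 had the widest in replicate 1, 3186 bp, and Psme4 in replicate 2, 3177 bp. Psmb5 had the narrowest in replicate 1, 526 bp, and Psmd9 in replicate 2, 515 bp. The genes with the widest hotspots had score percentiles of 74.6 and 86.4, and those with the narrowest 32.2 and 24.3. Other genes went against this order. Psmg2 had wide hotspots of 2045 and 2633 bp at a score percentile of 40.2, and Psmd8, at 93.9, had 1239 and 1236 bp. Every one of the 47 had a promoter hotspot at the highest −log10 false discovery rate that the files hold, 100, in both replicates, which 93.9% of all genes with an open promoter also had. Shared regions more than 2.5 kb from any TSS and within 50 kb of a start numbered 5 at the median proteasome gene, against 6 at the median gene with an open promoter and 4 at the median protein-coding gene. Psmc3ip had the most, 19, and Psmb7 came next with 15.

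Highest promoter peaks of proteasome genes in replicate 1 had a median GC content of 62.0%, beside 64.7% over all protein-coding genes with a promoter peak. Their median ratio of observed to expected CpG was 0.872, beside 0.811. Constitutive genes had 0.874 (0.533 to 1.15), beside 0.686 (0.445 to 0.722) in the immune genes, so every immune peak was below the constitutive median. Psmd10 had the lowest ratio of all, 0.320, and Psmf1 the highest, 1.25.

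Exact matches to 12 motifs were counted in the same peaks, on both strands and with no mismatch. ETS (CCGGAAG), bound by a large family of activators, was in 19 of the 47 open genes, 40.4%, beside 13.7% of all protein-coding genes with a promoter peak. The same 19 genes held it in the peaks of replicate 2. They comprised 13 of 31 constitutive genes, 1 of 5 immune genes (Psmb10) and 5 of the 11 others (Psme3, Psme4, Psmg1, Psmg3 and Psmc3ip). By role, it was in 6 of 8 lid genes (Psmd6, Psmd7, Psmd11, Psmd12, Psmd13 and Psmd14) and 4 of 6 base ATPases (Psmc1, Psmc2, Psmc3 and Psmc6), but in 1 of 7 alpha genes (Psma6) and 1 of 7 beta genes (Psmb7). Among peaks of above-median score, a comparison chosen after seeing the data, it was present in 10 of 28 proteasome genes (35.7%) and in 17.4% of all. Over any promoter peak of replicate 1, a count also made afterwards, the shares were 40.4% and 19.6%.

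**Figure D4:**
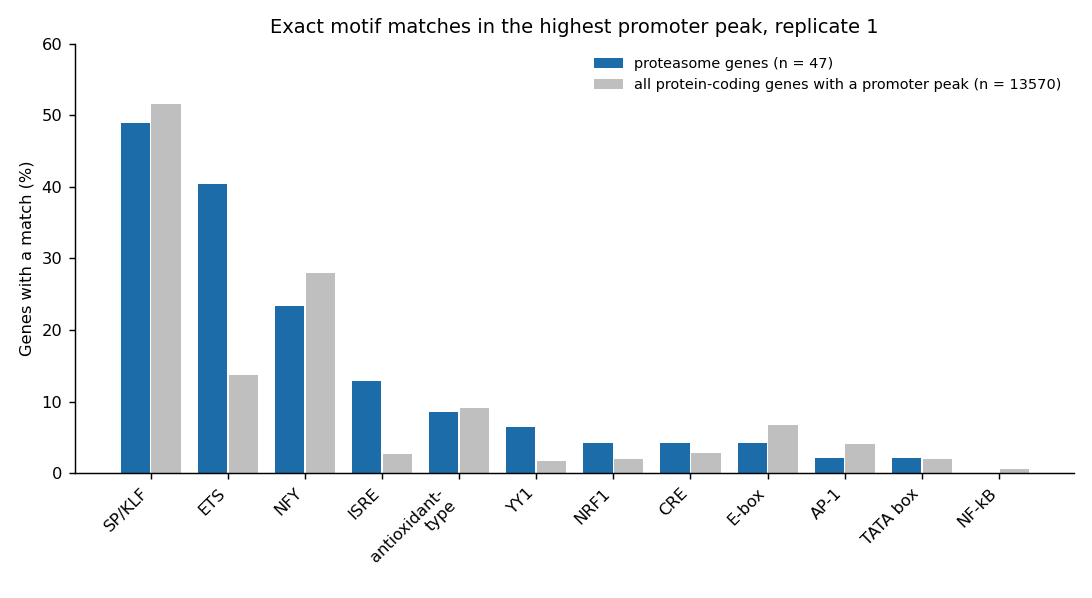
Percent of genes with an exact match (vertical axis) to each of 12 motifs in the highest promoter peak of replicate 1, for the 47 open proteasome genes (blue) and all 13570 protein-coding genes with a promoter peak (grey). ETS is at 40.4% and 13.7%, the widest gap in percentage points, while the ratio is larger for ISRE, the interferon-stimulated response element, at 12.8% and 2.62%, and for YY1, at 6.38% and 1.75%.

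The other motifs common in promoters were found in shares near those of all genes. SP/KLF (GGGCGG) was in 23 proteasome peaks, beside 51.6% of all, and NFY (CCAAT) in 11, beside 28.0%. The antioxidant-type element (TGACNNNGC), named for NFE2L1 and NFE2L2, was in 4, namely Psmb2, Psmb5, Psmb6 and Psmb10, or 8.51% beside 9.05% of all genes. Over any promoter peak of replicate 1 it was in 14 of 47 proteasome genes, 29.8% beside 23.2% of all. A match is only a string of letters in a window. Matches to different motifs shared bases in 2 proteasome peaks, CRE with NFY in Psmb2 and ETS with SP/KLF in Psme4. In replicate 2 the highest peaks of Psme4 and Psmg2 held the antioxidant-type element as well.

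The interferon-stimulated response element (GAAANNGAA) was in 6 of the 47 highest peaks, 12.8% beside 2.62% of all, and the 6 genes were Psmb3, Psmb4, Psmd4, Psmd7, Psmf1 and Psmg4, with no immune gene among them. In the 250 bases before to 50 after the 5′ end the share was again 12.8%, beside 7.29% of all genes with an open promoter. Over any promoter peak of replicate 1, a count made after the first was seen, 12 of 47 proteasome genes held it (25.5%), beside 10.3% of all protein-coding genes with a promoter peak. These 12 included 7 of 31 constitutive genes and 3 of 5 immune genes. The immune genes were Psmb8, Psmb9 and Psmb10, the 3 catalytic subunits, whose element lay in the lesser peaks with scores of 92, 136 and 92 in replicate 1 that are shown above. Neither Psme1 nor Psme2 held it in a promoter peak.

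The remaining motifs were rare. YY1 (AAGATGGCG) was in 3 peaks beside 1.75% of all, NRF1 (GCGCATGCG) in 2 beside 1.95%, CRE (TGACGTCA) in 2 (Psmb2 and Psmb8) beside 2.79% and the E-box (CACGTG) in 2 beside 6.71%. AP-1 (TGANTCA) was in 1, beside 543 of 13570, the TATA box (TATAAA) in 1, beside 1.97%, and NF-kB (GGGANTTTC) was in 0, beside 0.582%. Counts of 3 or fewer of 47 are too small to be set against these shares.

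**Figure D5:**
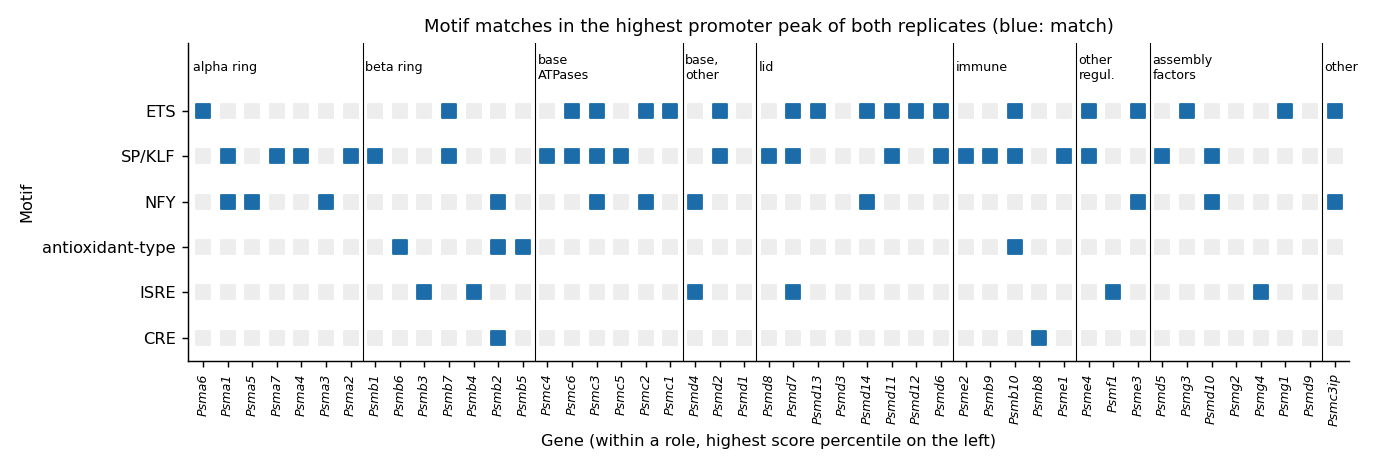
Motifs (rows) matched in the highest promoter peak of both replicates (blue squares) for each open proteasome gene (columns, by role). ETS matches fall in 13 of 31 constitutive genes. Antioxidant-type matches fall in 4 genes, among them the immune gene Psmb10. ISRE matches fall in 6 genes, and no immune gene is among these.

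Other genes of the pathway were taken from lists chosen with earlier results of these data known. All 20 partners and control genes of the proteasome were open, with a median percentile of 72.5, and 14 of them were at 50 or more in both replicates. Of all protein-coding genes 59.5% were open. Those open genes had a median of 46.7, and 45.7% of them were at 50 or more. Rad23b, a shuttle for ubiquitinated proteins, scored 149 and 143 (91.8), Ubqln4, another such shuttle, 147 and 146 (87.2), and the deubiquitinase Uchl5 147 and 143 (87.2). The list reached down to 30.4, the value of the shuttle Ubqln2 and of the deglycosylase Ngly1, with Sem1 at 33.1 and Ubqln1 at 35.2, genes named after their values were seen. The factor that drives subunit genes, Nfe2l1, scored 149 and 139 (80.4). Of the 14 genes of antigen processing and interferon control, 13 were open, with a median of 50. Tapbp, which loads peptides onto MHC class I, was highest at 149 and 146 (95.7), followed by the receptor gene Ifngr1 at 147 and 143 (87.2) and the transcription factor Irf1 at 141 and 139 (63.8). Other genes of this list were low, again named after their values were seen: Tap2 at 26.6, Cd74 at 17.4, Ifngr2, the partner receptor, at 13.9, Nlrc5 at 13.7 and Irf8 at 2.18. Ciita, the master regulator of MHC class II, was the gene without an open promoter, with a peak of 25 in replicate 1 alone.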

How the data were processed

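DNase-seq peaks and hotspots of 2 biological replicates were analysed. Per the listing deposited with each library, both came from the filtered alignment of that library and a further input, and replicates were not pooled. Coordinates are those of mm10, per the labels. Which aligner and caller were used is not given in the sources here. The score of each peak was deposited by the authors, and was used only to rank peaks within a library. Hotspots carry a −log10 false discovery rate (q-value) deposited by the authors, with 100 as its highest value. Lists hold called sites only, and the read depth behind them is unknown. The labels name sequencing instruments for replicate 1 only, so instrument and replicate cannot be told apart.

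Peaks on 21 chromosomes were kept (189648 in replicate 1 and 170745 in replicate 2), with 15 and 26 repeated entries counted once, and hotspots numbered 158286 and 142225. Peaks of both replicates that overlapped by 1 bp or more were joined, giving 127807 shared regions. Genes were symbols of GENCODE M21. Sequences were read from the reference assembly of mm10. RefSeq promoter entries matched 42 of 50 proteasome genes, and sequences were printed for matched genes only. Paaf1 was not among the protein-coding symbols and was left out, and some genes and a motif of the lists are not reported here. Psm genes were named by role, with values for the highest and lowest 2 of each class and for all immune, tissue-restricted and other members. Members, lists, motifs and alternatives were chosen with earlier results of these data known.

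On simulated data, all 2000 genes given peaks in both lists were called open, 0 of 2000 others were, and all 2400 planted motifs were found. These outcomes follow from the definitions used, so they check the computation only and not the accuracy on real peak lists. Alternatives varied the promoter window, start sites, overlap and peak list, and left out each replicate. Python 3.11.15, numpy 2.4.6, scipy 1.17.1, pandas 2.3.3 and matplotlib 3.10.9 were used.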

Additional observations from a re-analysis of the deposited data

How the results depend on the processing

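Under the alternatives, open promoters numbered 43 to 47 of the 50 proteasome genes, 29 to 31 constitutive, 5 immune and 0 testis or thymus genes. All these counts kept within 1.5 times of the reported ones, which is a wide limit. Over all 21911 protein-coding genes the number with an open promoter was 12052 to 13887. Both low ends, 43 and 12052, came from counting the 5′ end of the gene only, without Psma6, Psmd5, Psmd9 and Psmf1 among the proteasome genes. Medians of the score percentile moved by more than the spread between replicates in some. With the stronger 50% of peaks they were 49.1 for all proteasome genes, 60.6 for constitutive and 38.3 for immune genes; with peaks counted for the nearest gene only they were 57.9, 67.5 and 48.3. For immune genes the median was 38.4 from the 5′ end only and 38.0 from TSSs of protein-coding transcripts, where the constitutive minus immune difference was 25.0 in place of 20.3. No difference changed sign. Leaving out a replicate gave medians of 55.5 to 60.9 for all proteasome genes, 63.8 to 66.0 for constitutive and 44.4 to 48.8 for immune genes, a difference of 15.0 to 21.6, a hotspot width percentile of 45.7 to 52.3 (43.1 with both) and 6.50 to 7.00 distal regions. Within 100 kb the distal median was 9.50. In the 250 bases before to 50 after the 5′ end, NFY was found in 19 proteasome genes in place of 11, 40.4% beside 38.5% of all genes with an open promoter, and ETS in 15, 31.9% beside 16.2%. The causes were not tested. No paired analysis was possible because there is only 1 group. A called list cannot show that a promoter without a peak is closed.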
